A study of Mus musculus with 2 samples.

Results

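Open chromatin was described at 10 genes that make, break down or sense retinoic acid, out of 21938 protein-coding genes of the GENCODE M21 annotation. They were Rdh10, Aldh1a1, Aldh1a2 and Aldh1a3 for synthesis, Cyp26a1 and Cyp26b1 for breakdown, and the receptor genes Rara, Rarb, Rarg and Rxra. The genes were chosen by pathway, with earlier results of these data known. For each one, DNase-seq peaks within 500 bp of an annotated transcription start site (TSS) were read as promoter peaks, with alternative promoters kept apart. Distal peaks were those farther out, up to 100 kb, whose nearest protein-coding gene was one of the 10, called members from here on. In DNase-seq, nuclei are treated with the enzyme DNase I, and the ends of the released fragments are sequenced to find open chromatin. The tissue was urinary bladder from female B6CASTF1/J mice at 4 days, the offspring of a C57BL/6J by CAST/EiJ cross. A single group of 2 biological replicates was available, from separately numbered females that carry the same donor identifier, so there was no contrast to test and the spread between samples may be technical.

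Retinoic acid is made from vitamin A in 2 oxidation steps. RDH10 turns retinol into retinal, and the ALDH1A enzymes turn retinal into retinoic acid. CYP26 enzymes oxidise retinoic acid to products that are cleared, and so bound the cells it can reach. It acts inside the nucleus on pairs of a retinoic acid receptor (RAR) and a retinoid X receptor (RXR), which sit on direct repeats of a hexamer in DNA, known as response elements. In the mouse bladder it is known as a signal from the connective tissue to progenitors of the urothelium, the lining epithelium.

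The letters that tie the pathway to its own genes are direct repeats of the receptor hexamer with a spacer of 5 bases. The hexamer was searched as A or G, G, G or T, T, C, A on both strands of mm10 (GRCm38.p6), with spacers of 1, 2 and 5. Within 500 bp of the members' TSSs, 4 genes held 1 repeat with a spacer of 5 each. These are printed because repeats of this kind include the textbook elements through which the pathway acts on its own genes. The hexamers are in capitals, and the 4 repeats read 5′ to 3′ on the strand that matched. They lay at chr14:16575513-16575529 (minus strand, the gene's own), chr19:37697776-37697792 (minus strand, opposite to the gene), chr11:98960008-98960024 (plus strand, the gene's own) and chr15:102250817-102250833 (minus strand, the gene's own).
Rarb repeat: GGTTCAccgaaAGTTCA
Cyp26a1 repeat: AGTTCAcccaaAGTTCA
Rara repeat: AGTTCAgcaagAGTTCA
Rarg repeat: GGTTCAaagtgAGGTCA
The letters are those of the reference assembly, and the CAST/EiJ alleles were not read. Of 47 TSS windows of the members, 9 held a repeat with a spacer of 5, 2 one with a spacer of 1 and 0 one with a spacer of 2, and nearby TSSs share a repeat. Of 93513 TSS windows of coding genes, 0.305%, 0.767% and 0.496% did for spacers of 5, 1 and 2. A match describes the letters and is not evidence of binding.

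The promoters of Rarb and Cyp26a1 are shown whole, as RefSeq gives them, from 250 bases before the start to 50 after it, because the same kind of repeat sat close to both starts but only that of Rarb lay in open chromatin. Capitals mark the hexamers. The Rarb promoter is chr14:16575427-16575726 on the minus strand, and the Cyp26a1 promoter is chr19:37697558-37697857 on the plus strand, where the repeat reads as its reverse complement.
Rarb promoter: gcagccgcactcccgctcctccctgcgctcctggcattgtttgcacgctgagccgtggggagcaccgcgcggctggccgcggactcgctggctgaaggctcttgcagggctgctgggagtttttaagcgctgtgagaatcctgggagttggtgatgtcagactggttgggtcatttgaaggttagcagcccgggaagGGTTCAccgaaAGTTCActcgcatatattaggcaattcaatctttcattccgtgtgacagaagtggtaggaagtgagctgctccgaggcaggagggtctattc
Cyp26a1 promoter: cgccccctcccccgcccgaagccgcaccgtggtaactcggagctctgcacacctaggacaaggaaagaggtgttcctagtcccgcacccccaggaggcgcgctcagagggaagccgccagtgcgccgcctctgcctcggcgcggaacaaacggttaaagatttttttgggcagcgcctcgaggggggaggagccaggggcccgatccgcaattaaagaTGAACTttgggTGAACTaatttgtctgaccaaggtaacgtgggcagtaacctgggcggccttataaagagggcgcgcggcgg
In Rarb the repeat ran from -53 to -37 relative to the RefSeq TSS, with its centre 22 bp downstream of a TSS that GENCODE places at 16575543, and in Cyp26a1 from -32 to -16.

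Rarb encodes RARβ, and its repeat is the textbook response element through which retinoic acid raises transcription of its own receptor. In replicate 1 the Rarb repeat lay inside a promoter peak 1.38 high. In replicate 2 it lay 11 bp outside a peak 1.28 high. Beside the peaks, the authors deposited the stretches of bases whose false discovery rate for open chromatin was at most 0.05. All 17 bases of the repeat were listed there in both replicates, so by that measure the replicates did not differ over it. A footprint is a short protected stretch inside an open region, as the authors called it. One of 12 bp covered 11 bases of the repeat in replicate 1, and none touched it in replicate 2.

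Cyp26a1, the main inducible retinoic acid hydroxylase, showed the opposite picture. Its repeat had no peak, no footprint and 0 of 17 bases listed in either replicate. The nearest peak was 6228 bp away in replicate 1, with a height of 1.46, and 288 bp away in replicate 2, with a height of 0.417. The printed Rara and Rarg repeats were likewise outside every peak and footprint, with 0 of 17 bases listed. The Rara repeat lay 396 bp upstream of the internal TSS at position 98960412, between peaks: the nearest was 62 bp away and 0.964 high in replicate 1, and 256 bp away and 1.70 high in replicate 2. The Rarg repeat lay 479 bp upstream of the internal TSS at 102250346, with the nearest peak 1075 bp away in replicate 1 and 1172 bp away in replicate 2. A repeat with a spacer of 1, which RXR pairs can also bind, was present near that same Rarg TSS and near 1 Rxra TSS, and neither lay in a peak.

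**Figure D1:**
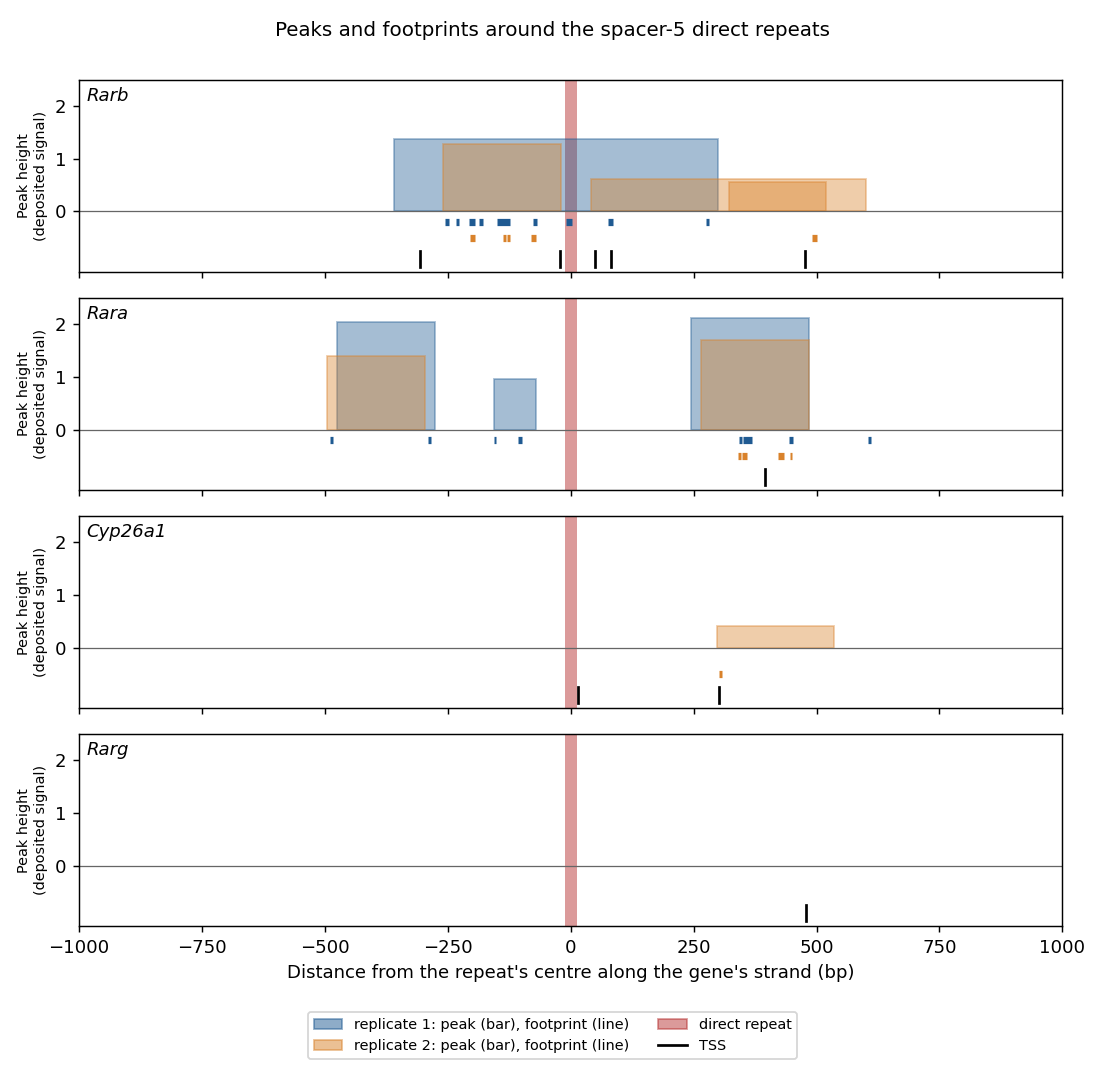
Peaks (bars, height as deposited), footprints (short lines under the axis) and TSSs (black lines) within 1000 bp of each gene's repeat with a spacer of 5, for replicate 1 in blue and replicate 2 in orange; the x axis is the distance in bp from the repeat's centre along the gene. The Rarb repeat falls in a replicate 1 peak 1.38 high and 11 bp from a replicate 2 peak 1.28 high, while the printed repeats of Rara, Cyp26a1 and Rarg fall in none.

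The search with the first hexamer was also run from open chromatin to letters. At promoters it covers much of the same sequence, so its match at Rarb is the repeat printed above and not a second result. Regions were made by merging overlapping peaks of the replicates, and a region was shared if both replicates had a peak in it. The 300 bp around the centre of each shared region were searched. Among the members' promoter regions, 1 of 24 held a repeat with a spacer of 5, that of Rarb, where 0.0527% of all 18983 shared promoter regions held one. Among their shared distal regions, 0 of 49 did, where 0.174% of all 34507 shared distal regions held one. With any of the 3 spacers the counts stayed at 1 of 24 and 0 of 49, where 0.279% of promoter and 0.577% of distal regions had a match. Against these shares, 0 of 49 is no result about the members.

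The authors called peaks sample by sample, 96518 in replicate 1 and 122870 in replicate 2. The height of a peak is the signal the authors deposited, and its scale is not stated. Every height was a whole multiple of 1 step within 0.02 steps, 0.00466 in replicate 1 and 0.00417 in replicate 2, and the median peak was 110 and 77 steps high. Exact Poisson intervals at 95% on the steps take each step as 1 independent count, which could not be checked. On that assumption they cover counting error only. Promoter peaks were mostly lower in replicate 2. The median log2 ratio, replicate 2 over replicate 1, was -0.26 over the members' 24 shared promoter regions and -0.40 over all 18983. The tissue label was read against marker promoters. Peaks in both replicates were present at 6 of 7 smooth muscle, 5 of 6 fibroblast and 3 of 4 endothelium markers, where 62.3% of all coding genes had them. Below that share were urothelium, with 3 of 7 markers, and mesothelium, with 2 of 4. Peaks were absent in both at the urothelial markers Upk1a and Trp63, at Upk3b and Pecam1, and at all 4 leukocyte, 4 glia and neuron and 3 hepatocyte markers. In a whole organ, fewer cells with an open site and weaker opening in each cell cannot be told apart.

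Promoters of 9 of the 10 genes were open in both replicates, where 62.3% of all coding genes were. Cyp26a1 was the exception, with a peak in replicate 2 alone. Taken singly, 9 genes had a promoter peak in replicate 1 (65.4% of coding genes) and all 10 in replicate 2 (64.7%). The peaks were of modest height. The median over the members was 1.53 in replicate 1 and 1.15 in replicate 2, and over all coding genes with a peak it was 2.44 and 1.80. By this rule no member was above the coding median in both replicates, but at Rarg the window misses a tall peak in replicate 2, whose region stood at 4.37 and 3.86. No promoter window of a member was shared with another coding gene.

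Of the synthesis genes, Rdh10 and Aldh1a2 had the taller promoters. Rdh10 (chr1:16105774-16133734, plus strand), which makes retinal, had a promoter peak of 1.65 in replicate 1 and 1.38 in replicate 2 (1.52 ± 0.187, SD, n = 2). A still taller peak was centred 848 bp upstream of the start, at chr1:16104681-16105660, with heights of 2.83 and 1.91 in replicates 1 and 2. That region reached into the 500 bp window, but its tall peak did not, and a window of 1000 bp gave a mean of 2.37. Aldh1a2 (chr9:71215789-71296243, plus strand), the main retinal dehydrogenase of embryonic mesenchyme, had 1.53 in replicate 1 and 1.16 in replicate 2 (1.35 ± 0.257). That peak was centred 428 bp upstream of the start, and the region over the start itself was broad and lower, 1100 bp wide with heights of 0.726 and 0.559. Both genes stood in the lower part of open promoters, at percentiles 35.2 and 38.8 for Rdh10 and 32.9 and 32.6 for Aldh1a2 among coding genes with a peak.

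The other dehydrogenases had low promoter peaks. Aldh1a1 (chr19:20492715-20643465, plus strand) had 0.610 in replicate 1 and 0.709 in replicate 2 (0.659 ± 0.0699), or 131 steps (109.5 to 155) and 170 steps (145 to 198). Aldh1a3 (chr7:66390890-66427517, minus strand), a retinal dehydrogenase of epithelia, had 0.703 and 0.650 (0.677 ± 0.0373), and had no promoter peak in the authors' stricter lists. There, 8 of the 10 genes had one in both replicates, where 55% of coding genes did. The replicates lay close together for both genes, at percentiles from 9.66 to 17.4. Internal promoters added little: Aldh1a1 had a second one with a peak of 0.270 in replicate 1 alone, and Aldh1a3 had 1 with 0.475 in replicate 1 alone and 1 with none.

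The breakdown genes had low promoters beside taller distal peaks. Cyp26b1 (chr6:84571414-84593908, minus strand) clears retinoic acid in mesenchyme and in the gonad. Its internal promoter had 0.820 in replicate 1 and 0.792 in replicate 2 (0.806 ± 0.0193). The promoter at the 5′ end of the gene had 0.386 and 0.271 (0.329 ± 0.0817), below the internal one in both replicates. Cyp26a1 (chr19:37697798-37701536, plus strand) had a promoter peak of 0.417 in replicate 2, at 100 steps (81.4 to 122). Replicate 1 had no peak and no listed base there. Whether weaker opening was present in replicate 1 was not detectable from a list of called peaks.

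Among the receptors, one promoter of each gene was closed and another open. Rara (chr11:98927818-98974942, plus strand), which encodes RARα, had 4 separate promoters. The open ones had 2.31 and 2.11 (TSSs from 98937698 to 98938328) and 2.12 and 1.70 (TSS at 98960412) in replicates 1 and 2. The promoters at the 5′ end and at 98939711 had no peak in either replicate. Rarb (chr14:16430839-16819156, minus strand) had no peak and no listed base at its 5′-most promoter in either replicate. Its internal promoter, the one with the repeat printed above (TSSs from 16575045 to 16575827), had 1.38 and 1.28 (1.33 ± 0.0666).

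Rarg (chr15:102234938-102257517, minus strand), which encodes RARγ, held the tallest promoter peak of the set. It lay at chr15:102246981-102247240, 620 bp upstream of the internal TSS at 102246500 and in an intron of longer transcripts, and stood 4.37 high in replicate 1 and 3.86 in replicate 2 (4.12 ± 0.362). These heights were 939 steps (880 to 1001) and 926 steps (867 to 988), and the region was at percentile 89.2 of shared promoter regions. The 500 bp window caught this peak in replicate 1 and just missed it in replicate 2. The gene's value by the rule was therefore 4.37 in replicate 1 and 1.13 in replicate 2 (2.75 ± 2.29), a gap that the window made. Of the 6 separate promoters of Rarg, 3 were open in both replicates. Those at the 5′ end had 0.866 and 0.688, those at 102243589 had 1.25 and 1.13, the one at 102252640 had 0.251 in replicate 1 alone, and 2 had none.

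The Rarg region is printed along the gene because it carried 4 footprints called in both replicates, with the bases footprinted in both in capitals.
Rarg chr15:102246981-102247240 (minus strand): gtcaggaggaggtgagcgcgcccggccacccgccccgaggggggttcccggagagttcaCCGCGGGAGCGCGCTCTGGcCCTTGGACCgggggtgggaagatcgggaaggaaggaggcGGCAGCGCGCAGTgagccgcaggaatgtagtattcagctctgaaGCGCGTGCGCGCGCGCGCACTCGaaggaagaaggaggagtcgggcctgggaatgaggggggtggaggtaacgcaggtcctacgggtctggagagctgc

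Rxra (chr2:27676440-27762957, plus strand) encodes RXRα, a partner of the RARs. Its first promoter had 1.81 in replicate 1 and 1.25 in replicate 2 (1.53 ± 0.396), and an internal one at 27740201 had 1.61 and 1.18. The other 2 promoters had no peak in either replicate. Over all members, 14 of 27 separate promoters were open in both replicates, where 31.7% of the 48607 separate promoters of coding genes were. Another 3 were open in replicate 1 alone, 1 in replicate 2 alone and 9 in neither. Of the 9 closed ones, 0 had a single base listed at a rate of up to 0.05. By role, 4 of 8 promoters of synthesis genes, 2 of 3 of breakdown genes and 8 of 16 of receptor genes were open in both.

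**Figure D2:**
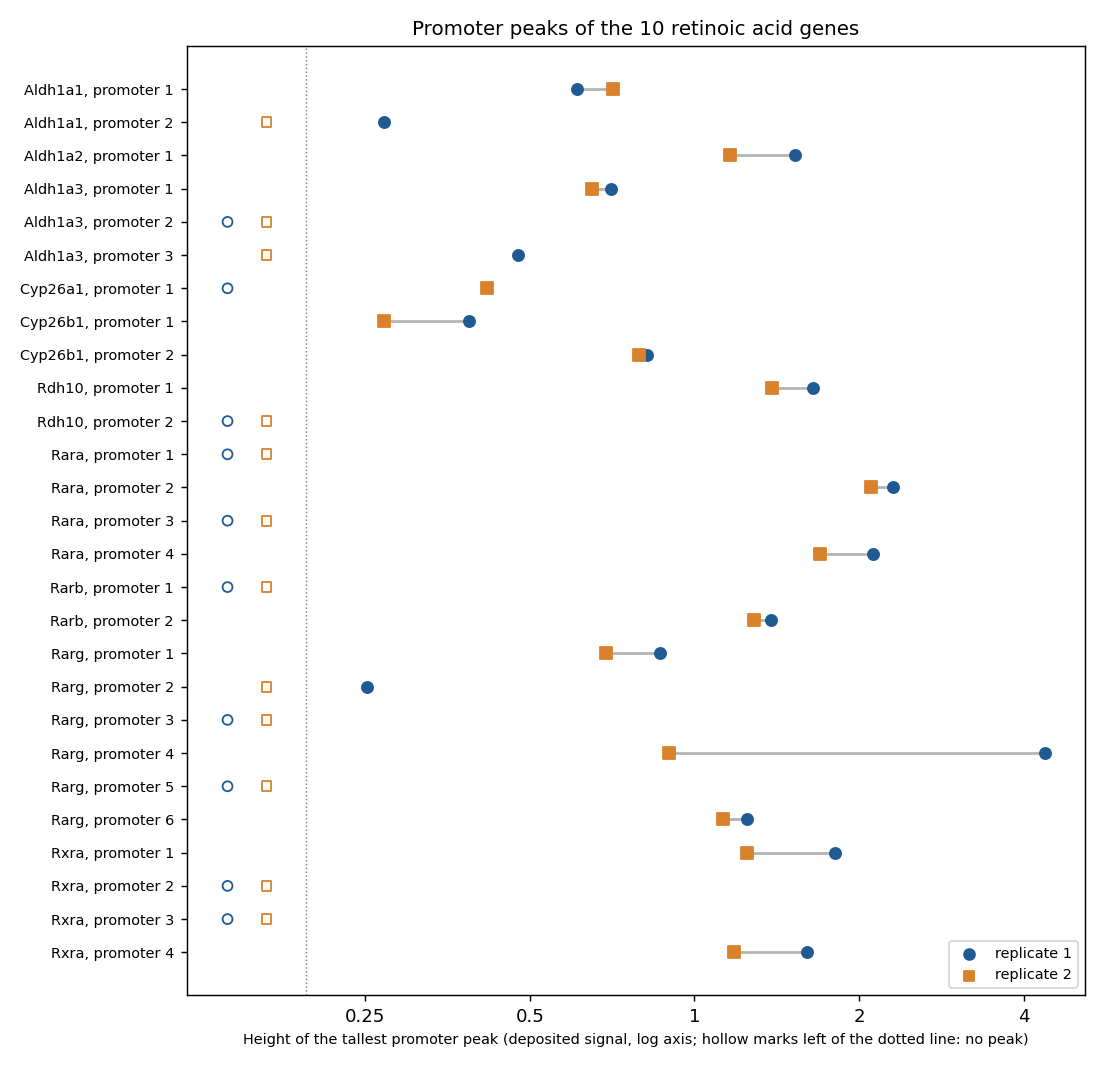
Height of the tallest peak within 500 bp of each separate promoter (log axis, deposited signal), with promoters numbered 5′ to 3′ along each gene; filled marks are replicate 1 (blue circles) and replicate 2 (orange squares), joined where both have a peak, and hollow marks left of the dotted line mean that no peak was called. The promoters open in both replicates number 14, and the wide gap at Rarg promoter 4 (4.37 and 0.901) is the tall peak that the window misses in replicate 2.

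Away from promoters, most regions called in both replicates belonged to the receptor genes. The 10 genes together had 49 shared distal regions, at 8 of the 10 genes, where 47.5% of coding genes had at least 1. The median per gene was 2 for the members and 0 for all coding genes, and the mean was 4.9 and 1.33. Receptor genes held 33 of the 49, breakdown genes 13 and synthesis genes 3. The receptor genes were uneven, with 18 at Rxra, 10 at Rara, 4 at Rarg and 1 at Rarb, and the breakdown gene Cyp26b1 had 11. Regions called in 1 replicate were spread otherwise. In replicate 1 alone, 26 were at receptor, 10 at breakdown and 11 at synthesis genes, and in replicate 2 alone 6, 27 and 71. A mean height over 1 was reached by 23 of the 49 shared regions (46.9%), where 26.3% of all shared distal regions reached it. Of these 23, 19 were at receptors, 3 at breakdown genes and 1 at a synthesis gene. By position, 26 lay in introns of the member, 1 in an exon, 21 between genes and 1 in another gene.

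Rxra had 18 shared distal regions, a number reached by 0.588% of coding genes. Of these, 8 lay in its introns, 8 beyond its 3′ end and 2 before its start. The tallest was chr2:27771981-27772180, 31.9 kb from the nearest Rxra TSS and beyond the end of the gene, with 2.93 in replicate 1 and 2.31 in replicate 2. Next came chr2:27765021-27765220, also beyond the end, with 2.59 and 1.84, and the intronic chr2:27758501-27758700 with 1.95 and 2.09. These stood at percentiles 97.1, 95.2 and 93.8 of all shared distal regions by mean height, and at each of them the distal peak was taller than the first promoter's in both replicates. A lower region, chr2:27774281-27774740, with 1.34 and 1.48, held 5 footprints called in both replicates. The lowest of the 18 had a mean of 0.525.

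Rara had 10 shared distal regions, a number reached by 1.71% of coding genes, and 9 of them were intronic. The tallest were chr11:98963601-98963980, with 2.39 in replicate 1 and 1.82 in replicate 2, and chr11:98951381-98951640, with 2.35 and 1.48. Another, chr11:98959521-98959740, stood 782 bp upstream of the open internal promoter at 98960412, with 2.04 and 1.39, and had no footprint called in both replicates. The lowest had a mean of 0.903, and over all shared distal regions the median was 0.671 in replicate 1 and 0.596 in replicate 2. Rarg had 4 (9.91% of coding genes had as many), with mean heights from 0.815 to 1.37. The tallest of these, chr15:102239301-102239480, lay in an exon with 1.56 and 1.18, and chr15:102247321-102248200, with 1.43 and 1.05, adjoined the tall promoter region. Rarb, the longest of the receptor genes, had 1, at 22.0 kb upstream of its 5′-most start, with 0.456 and 0.475.

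Cyp26b1 had 11 shared distal regions, a number reached by 1.45% of coding genes. The tallest, chr6:84590401-84590560, lay in an intron 1842 bp upstream of the nearest TSS, with 2.58 in replicate 1 (555 steps, 510 to 603) and 2.66 in replicate 2 (638 steps, 589 to 689). It was over 3 times as high as the gene's own promoter peaks in both replicates. A second intronic region, chr6:84583441-84583660, 4140 bp downstream of a TSS, had 1.62 and 1.41. With the promoter regions included, the gene held 17 shared regions within 15.5 kb, and 12 of these had a mean height under 0.5. Cyp26a1 had 2 shared distal regions. The nearer, chr19:37704021-37704200, lay 6026 bp downstream of the start, past the end of the gene, with 1.46 and 1.33 in replicates 1 and 2 at percentile 85.6, so this gene with a promoter peak in 1 replicate had a distal one in both. The farther, 97.7 kb away at chr19:37795601-37795920, had 0.806 and 0.592, and each of the 2 held 2 footprints called in both replicates.

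The tall distal regions of Cyp26b1 and Rxra are printed along each gene, since they stood at the same percentile, 97.1, with the bases footprinted in both replicates in capitals.
Cyp26b1 chr6:84590401-84590560 (minus strand): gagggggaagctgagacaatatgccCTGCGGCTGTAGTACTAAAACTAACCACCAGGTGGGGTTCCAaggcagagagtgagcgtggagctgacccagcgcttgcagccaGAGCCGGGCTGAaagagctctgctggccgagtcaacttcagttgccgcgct
Rxra chr2:27771981-27772180 (plus strand): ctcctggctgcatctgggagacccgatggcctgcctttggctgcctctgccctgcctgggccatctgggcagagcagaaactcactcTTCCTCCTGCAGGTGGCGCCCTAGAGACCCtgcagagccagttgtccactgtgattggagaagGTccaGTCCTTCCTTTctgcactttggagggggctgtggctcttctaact

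The synthesis genes had few distal regions called in both replicates. Aldh1a3 had 2, of which chr7:66434741-66434920, 7308 bp upstream of its start, was the taller with 1.40 in replicate 1 and 0.938 in replicate 2. Rdh10 had 1, in an exon of Stau2 and 99.3 kb away, with 0.740 and 0.488. Aldh1a1 and Aldh1a2 had none. Aldh1a2 did have 6 in replicate 1 alone, the tallest 4712 bp upstream of its start with 0.759.

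Many low peaks near the members were called in only 1 replicate, 47 regions in replicate 1 and 104 in replicate 2. Rdh10 had 47 in replicate 2 alone, all between genes, in a stretch of 33.2 kb at chr1:16149981-16183148. Their heights ran from 0.050 to 0.363 with a median of 0.138, and 41 were in the stricter list of that replicate. Of coding genes, 0.488% had as many. Aldh1a3 and Cyp26b1 each had 23 in replicate 2 alone, within 32.3 and 24.8 kb, with medians of 0.142 and 0.129, a count reached by 2.1% of coding genes. All distal regions found in replicate 2 alone had a median of 0.179, above the medians at these 3 genes. Replicate 1 alone had 12 such regions at Rarg, with a median of 0.251, where all distal regions of replicate 1 alone had 0.233. Whether these patches differ between the animals was not tested.

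**Figure D3:**
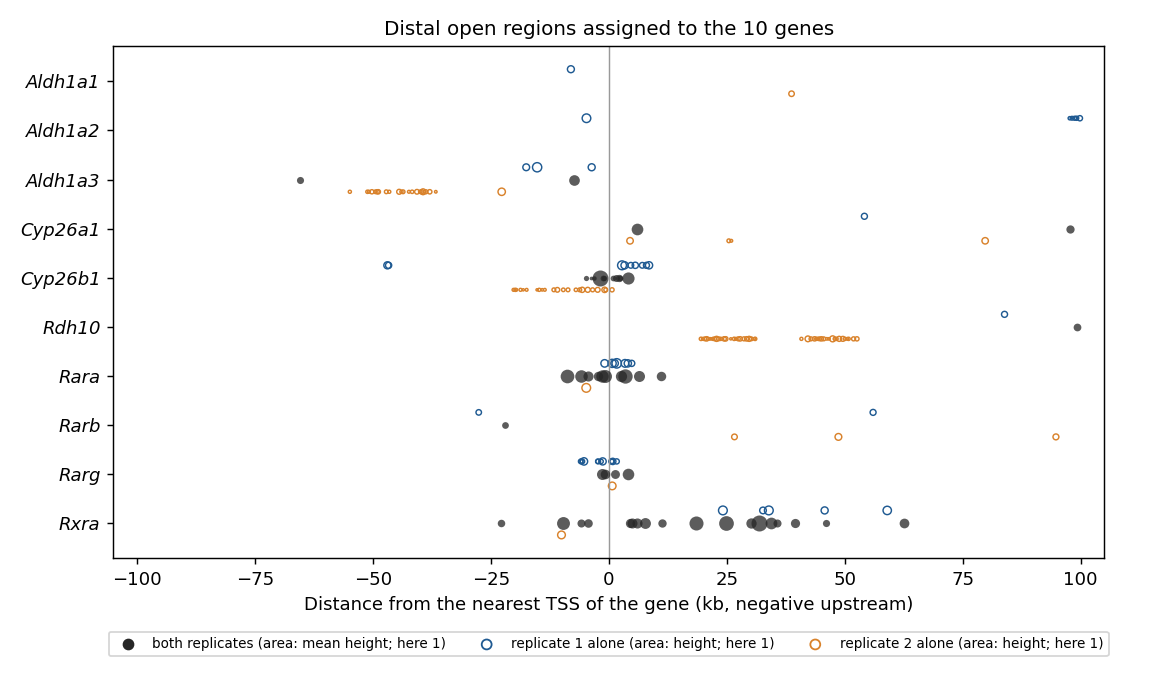
Distal open regions assigned to each gene, by distance from its nearest TSS (kb, negative upstream); black discs were called in both replicates and open circles in replicate 1 (blue) or replicate 2 (orange) alone, with the area giving the height. Rxra carries 18 shared regions, out to 62.5 kb from its nearest TSS, and Rara carries 10, and the rows of small orange circles at Rdh10, Aldh1a3 and Cyp26b1 are the 47, 23 and 23 low regions of replicate 2.

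Most shared footprints were at the receptor genes. Over all shared regions of the members, 85 footprints overlapped between the replicates, 68 at receptor genes, 10 at breakdown genes and 7 at synthesis genes. Rxra had 33, in 15 of its 22 regions, Rara 20 in 11 of 13, and Rarg 12 in 6 of 8. Cyp26b1 had 6, in 3 of its 17 regions, and Aldh1a1 had none. Receptor genes also held 33 of the 49 shared distal regions. Per region, 54.2% of the members' promoter regions had at least 1, where 74.9% of all shared promoter regions did, and 59.2% of their distal regions, where 61.3% of all did. The mean number per region was 1.33 in their promoter regions (1.86 over all) and 1.08 in their distal ones (1.05 over all). The 3 shared footprints of Rarb all lay upstream of its repeat.

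Other motifs in the same 300 bp windows, were chosen after the data had been seen. GGGCGG, bound by SP and KLF factors, was in 17 of 24 promoter regions (70.8%, all regions 66.7%) and in 13 of 49 distal ones (26.5%, all 17.4%). The AP-1 motif TGANTCA was in 1 promoter region (4.17%, all 4.09%) and 5 distal ones (10.2%, all 10.1%). GGAATG, bound by TEAD factors, was in 2 promoter (8.33%, all 10.3%) and 9 distal regions (18.4%, all 17.2%). The palindromic NFI motif was in 0 regions of either kind (0.0421% and 0.217% of all). AGGNGGCGC, the core of the motif of CTCF, a factor that organises chromatin loops, was in 3 promoter regions (12.5%, all 8.05%) and 4 distal ones (8.16%, all 6.53%). Both strands were searched, and an AGGNGGCGC match can overlap a GGGCGG one. Each motif was searched as these letters alone, so variants that a factor may also bind were not counted, and a match does not name the factor.

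Matches were then set against the footprints. AGGNGGCGC lay wholly inside bases footprinted in both replicates in 4 of its 7 regions: at the Rdh10 start, in chr11:98954381-98954660 of Rara, in chr15:102239301-102239480 of Rarg and in the Rxra region printed above. Over all shared regions with a match, 52.7% had one wholly footprinted. GGGCGG did in 5 of its 30 (27.4% of all), and the AP-1 and TEAD motifs in 0 of 6 (0.776%) and 0 of 11 (2.02%). The repeat of Rarb, footprinted in 1 replicate, was not in a footprint of both. These counts are a description, with no test.

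Of 38 other retinoid genes, 23 had an open promoter in both replicates (60.5%, where 62.3% of coding genes did), 2 in replicate 1 alone, 2 in replicate 2 alone and 11 in neither. In the stricter lists 16 of the 38 did in both replicates (42.1%), where 55% of coding genes did. Among transcription partners, Ncoa2, a coactivator, had 6.97 in replicate 1 and 5.25 in replicate 2 (6.11 ± 1.22, SD, n = 2), Ncoa3, another, had 2.99 and 2.51 (2.75 ± 0.342), and Rxrb, a further RXR, had 6.52 and 4.97 (5.75 ± 1.10). Ppard, a nuclear receptor that has been proposed to bind retinoic acid too, had 5.53 and 5.39 (5.46 ± 0.0963). Fabp5, the carrier proposed to bring it there, had 2.82 and 1.71 (2.26 ± 0.786). Tgm2, a transglutaminase induced by retinoic acid in many cells, had 3.32 and 2.80 (3.06 ± 0.369). These promoters were above the coding median in both replicates, except that Fabp5 was below it in replicate 2.

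Of the enzymes for retinol, Rdh5 had 3.44 and 2.60 (3.02 ± 0.596) and Adh5 had 3.18 and 2.13 (2.66 ± 0.736) in replicates 1 and 2. The Rxrb window overlaps that of Slc39a7, and the Rdh5 window that of Bloc1s1, so those peaks cannot be given to 1 gene. No promoter peak was called in either replicate at Cyp26c1, a further hydroxylase of the family, at the binding protein Crabp1, or at the vitamin A uptake receptor Stra6. The same held for the enzymes Rdh12, Rdh16, Dhrs9, Adh7, Bco1 and Rpe65 and the retinoic acid target genes Stra8 and Hoxb1. Crabp2, which carries retinoic acid to the RARs, had 0.475 in replicate 2 alone, and Lrat, which stores retinol as esters, had 0.517 in replicate 1 alone.

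**Figure D4:**
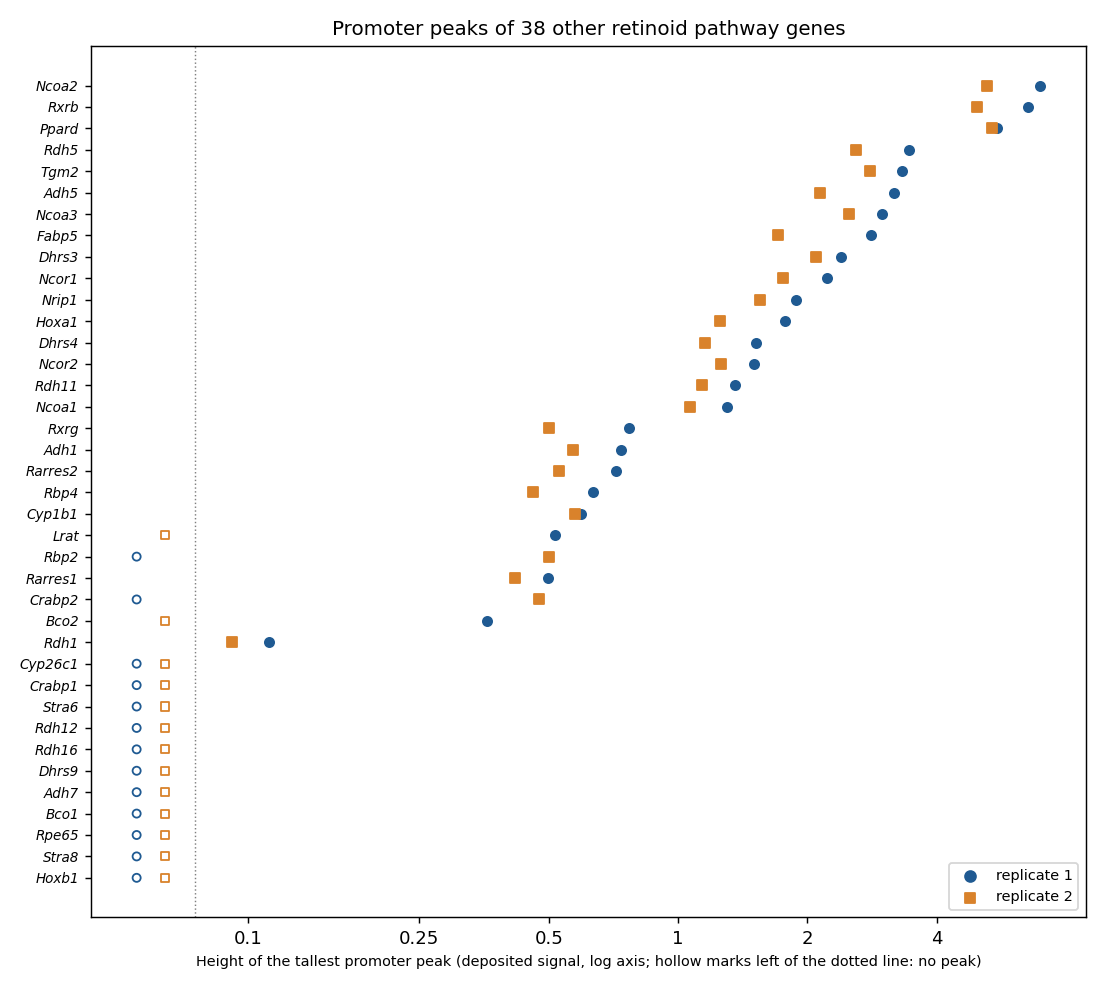
Tallest promoter peak of 38 other genes of the retinoid pathway in replicate 1 (blue circles) and replicate 2 (orange squares), on a log axis of the deposited signal, with hollow marks left of the dotted line where no peak was called. Ncoa2, Rxrb and Ppard lead, and the 11 genes at the bottom had no promoter peak in either replicate.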

How the data were processed

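DNase-seq libraries of urinary bladder from 2 biological replicates were read from the deposited lists of peaks, rates and footprints on mm10, per the labels. The peak height is the signal deposited by the authors, on a scale that no source used here states. The authors' rate lists give a q-value for stretches of bases, kept up to 0.05, while the p-value column deposited with the footprints is 0.01 for each one, so footprints were not ranked. The aligner, the callers, total depth and the mapping of the hybrid's reads remain not given in the sources used here. Of each sample the longer peak list was used, with the shorter as the stricter threshold. Promoters whose 500 bp windows overlapped were joined. Percentiles of genes are among coding genes with a promoter peak in that replicate. Peaks overlapping by at least 1 bp were merged, and a region's height in a replicate is that of its tallest peak there. Gene models came from GENCODE M21 and sequences from RefSeq GRCm38.p6, the same build. All 10 members are named. Of the 38 other pathway genes (1 more on the list is not reported here), the 8 with the tallest mean promoter peak and every gene without one are named, and 2 with a peak in 1 replicate, Crabp2 and Lrat, were added after their values were seen. Members and lists were chosen with earlier results of these data known. Python 3.11.15, numpy 2.4.6, scipy 1.17.1, pysam 0.24.0, samtools 1.23.1 and matplotlib 3.10.9 were used, and the scripts were tested on simulated data. Alternatives were other promoter windows, distal limits, overlap and gene rules, the stricter lists, looser and narrower motif searches, and each replicate alone.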

Additional observations from a re-analysis of the deposited data

How the results depend on the processing

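The number of members with an open promoter stayed between 8 (stricter lists, where 55% of coding genes were open in both replicates) and 10 (replicate 2 alone) under every alternative run, and that of separate promoters between 12 and 17, where the main values were 9 and 14. For the other pathway genes the count was 16 of 38 (42.1%) in the stricter lists and 23 to 25 otherwise. The 49 shared distal regions became 29 in the stricter lists, and 97 to 157 where a single replicate was used, since a region then needs no second call. They numbered 44 to 49 with other limits and gene rules. The 85 shared footprints became 170 to 205 with a single replicate and 90 when footprints only had to overlap a peak. The single region with a response element motif became 0 in a window of 150 bp, where the Rarb repeat lies outside, and 3 with a looser hexamer that takes C or G before its last base. One added match, with a spacer of 5, was at chr15:102247226-102247242, at the edge of the tallest promoter region, that of Rarg. The other, with a spacer of 2, was at chr2:27740473-27740486 in an Rxra promoter region. The Rarg match touched a footprint in replicate 2 alone and the Rxra match in replicate 1 alone. Over all shared regions, 0.880% of promoter and 1.32% of distal regions match that motif. With a match anywhere in the region, an alternative chosen after seeing the data, it stayed at 1. Among the members' heights, Aldh1a2 was at 0.643 in a 250 bp window and Rdh10 stood at 2.37 in one of 1000 bp. Rarg, at 2.75 by the rule, was at 1.39 in a 250 bp window, 4.12 in one of 1000 bp, and 1.13 to 4.37 in a single replicate. No paired analysis was possible because the replicates form a single group with no contrast. Total depth is unknown, and whether a promoter without a peak was weakly open was not tested.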
